A study of Homo sapiens with 7 samples.

Results

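The 4 assays described here measure microRNAs that the transcription factor NF-kB is known to induce: miR-146a, the arms miR-146b-5p and miR-146b-3p of miR-146b, and miR-155. They were chosen by assay name out of the 377 human microRNAs on the TaqMan Human MicroRNA Array A card, a quantitative PCR plate with 1 assay per microRNA. MicroRNA was measured in 7 cell lines derived from MDA-MB-435, an established human tumor line that was first described as a breast carcinoma and is now widely regarded as melanoma-derived. The study compared 3 oligometastatic L1-R2 lines (4T, 3T and 8T, labelled MDA-MB-435-L1-GFP, Ol-like) with 4 polymetastatic L1Mic-R2 lines (labelled MDA-MB-435-L1Mic, Poly-like, with the numbers 2T, 3T, 7T and 8T) to ask which microRNAs differ between cells that form few lung metastases and cells that form many. All 7 lines come from cells that carry green fluorescent protein (GFP), and 1 card was run for each.

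The L1-R2 lines descend from L1-R1, a line grown from lung macrometastases, and the L1Mic-R2 lines from L1Mic-R1, grown from live tumor cells of lung that was free of macrometastases in the same animal. Each R2 line was recovered from the lung of a distinct female athymic mouse after tail vein injection of 1 of these R1 lines, under G418 selection for the GFP vector. Athymic mice lack mature T cells but keep innate immune cells. Each group therefore traces back to a single R1 line, so that p-values measure the spread between lines of a lineage.

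NF-kB is held in the cytoplasm by inhibitor proteins and enters the nucleus when Toll-like receptors, the interleukin-1 receptor or tumor necrosis factor signal. Among the transcripts it switches on are the precursors of miR-146a. The best known targets of miR-146a are IRAK1 and TRAF6, signaling proteins of the Toll-like and interleukin-1 receptors, so that the microRNA acts as a brake on the pathway. The related miR-146b shares these targets, while miR-155 is cut from the noncoding transcript MIR155HG, is induced in activated macrophages and lymphocytes, and represses inhibitors of signaling such as SOCS1 and SHIP1. In tumor cells miR-146a and miR-146b are mostly known for lowering NF-kB activity, and miR-155 for promoting growth.

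The mature sequences are shown because what the assays can tell apart depends on them. All 4 matched a RefSeq entry (GRCh38.p14), with the plain assay names miR-146a and miR-155 taken as the 5p arm. They are written 5′ to 3′ with the seed, bases 2 to 8, which pairs with targets, in capitals.
miR-146a: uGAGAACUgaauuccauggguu
miR-146b-5p: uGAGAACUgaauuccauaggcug
miR-146b-3p: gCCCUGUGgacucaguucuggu
miR-155: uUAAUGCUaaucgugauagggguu

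The miR-146a and miR-146b-5p sequences were identical at 20 of 22 positions, the seed included. Counted from the 5′ end, with the base of miR-146a first, they differed by G18A and U21C, and miR-146b-5p was 1 base longer. Of 2370 human mature names in the RefSeq table, 3 had the seed GAGAACU: the pair above and miR-7153-5p. Among the 326 assays of the card that could be matched by name, miR-146a and miR-146b-5p were the 2 with that seed. The seeds of miR-146b-3p and miR-155 were each found once in the table.

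The 3 precursors lie on different chromosomes, all on the plus strand. MIR146A, at chr5:160485352-160485450, overlaps the long noncoding RNA gene MIR3142HG, and its mature microRNA spans chr5:160485372-160485393. MIR146B, at chr10:102436512-102436584, overlaps no other gene of the RefSeq table. Within its hairpin of 73 bases the 5p arm takes bases 9 to 31 (chr10:102436520-102436542) and the 3p arm bases 46 to 67 (chr10:102436557-102436578). MIR155, at chr21:25573980-25574044, overlaps MIR155HG, and mature miR-155 spans chr21:25573983-25574006.

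Values are given as Ct, the number of PCR cycles that a well needed to reach a set fluorescence, so that 1 cycle less stands for about 2 times more RNA. Assays differ in efficiency, so that a Ct was compared between lines, and not between microRNAs as an abundance. A Ct below 38 was called detected, and a well without a signal (Undetermined) is listed at 40. The cards detected 172 to 184 microRNAs in L1-R2 and 160 to 172 in L1Mic-R2. Card numbers ran from 1 to 3 for L1-R2 and from 4 to 7 for L1Mic-R2, so that card order and group cannot be told apart. Of the control RNAs, U6 averaged 16.32 ± 0.32 (SD, n = 3) cycles in the L1-R2 lines against 16.38 ± 0.28 (SD, n = 4) in the others (exact two-sided permutation test, p = 0.771). RNU44 and RNU48 appeared later on average in L1Mic-R2, at 25.58 against 24.69 and at 20.55 against 19.83, with groups that overlapped (p = 0.114 and p = 0.200, exact permutation tests).

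Both miR-146a and miR-146b-5p appeared later in all 4 L1Mic-R2 lines than in any L1-R2 line, a pattern shown by 13.8% of the 181 microRNAs tested, while miR-155 did not separate the groups and miR-146b-3p was Undetermined in all 7 lines. On the raw scale the mean differences came to 1.85-fold for miR-146a and 2.50-fold for miR-146b-5p, both lower in L1Mic-R2. After adjustment over the 181 microRNAs tested, neither passed limma at 0.05 on raw Ct, where 3.31% of the microRNAs did, and the 1 call among the 4 microRNAs on the 5 scales tried was that of miR-146a scaled by U6. The difference of miR-146b-5p was negative on all 5 scales and that of miR-146a on the 4 scales able to show one. All scales start from the same Ct values, so that these signs are not independent. Scaled by RNU44 and RNU48, the differences were smallest (-0.09 for miR-146a and -0.52 for miR-146b-5p) and the groups overlapped.

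For miR-146a, the raw Ct was 18.32 in line 4T, 19.11 in 3T and 18.75 in 8T of L1-R2. In L1Mic-R2 it was 19.69 in 2T, 19.33 in 3T, 19.34 in 7T and 20.10 in 8T. All L1-R2 lines were thus below all L1Mic-R2 lines, with a gap of 0.23 cycles between line 3T of L1-R2 and line 3T of L1Mic-R2. The means were 18.72 ± 0.39 (SD, n = 3) and 19.61 ± 0.36 (SD, n = 4), a log2 difference of -0.89 (exact two-sided permutation test, p = 0.0286, the smallest that 3 against 4 lines can give). As the RNA comes from whole cultures, fewer cells with the microRNA and less of it per cell cannot be told apart.

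For miR-146b-5p, the raw Ct was 26.72 in line 4T, 27.14 in 3T and 27.04 in 8T of L1-R2. In L1Mic-R2 it was 28.72 in 2T, 27.46 in 3T, 27.92 in 7T and 29.06 in 8T. The L1-R2 lines lay close together, the L1Mic-R2 lines were spread more widely, and the gap between the groups was 0.32. The means were 26.97 ± 0.22 (SD, n = 3) and 28.29 ± 0.73 (SD, n = 4), a log2 difference of -1.32 (exact two-sided permutation test, p = 0.0571). As given above for all microRNAs tested, such a lack of overlap was not rare on these cards.

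For miR-155, the raw Ct was 24.51 in line 4T, 24.31 in 3T and 25.05 in 8T of L1-R2. In L1Mic-R2 it was 24.29 in 2T, 24.34 in 3T, 24.27 in 7T and 24.66 in 8T. The groups overlapped, and the means of 24.62 ± 0.38 (SD, n = 3) and 24.39 ± 0.18 (SD, n = 4) differed by 0.23 on the log2 scale (exact two-sided permutation test, p = 0.343). Over the 7 lines the raw Ct of miR-155 spanned 0.78 cycles, against 1.78 for miR-146a, 2.34 for miR-146b-5p and a median of 1.46 for the 135 microRNAs detected in all 7. Once scaled, miR-155 was less narrow. It spanned 1.07 cycles after quantile normalization, against a median of 1.19, and 2.22 cycles by RNU44 and RNU48.

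The miR-146b-3p assay was Undetermined in each of the 7 lines and entered no test. Its sister arm, from the same hairpin, had a Ct of 26.72 to 29.06. If its assay were read at the limit of 40 cycles, miR-146b-3p would come at least 10.9 cycles after miR-146b-5p in line 8T of L1Mic-R2 and at least 13.3 cycles after it in line 4T of L1-R2. These are bounds that hold the efficiency of both assays, not ratios of the arms.

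**Figure D1:**
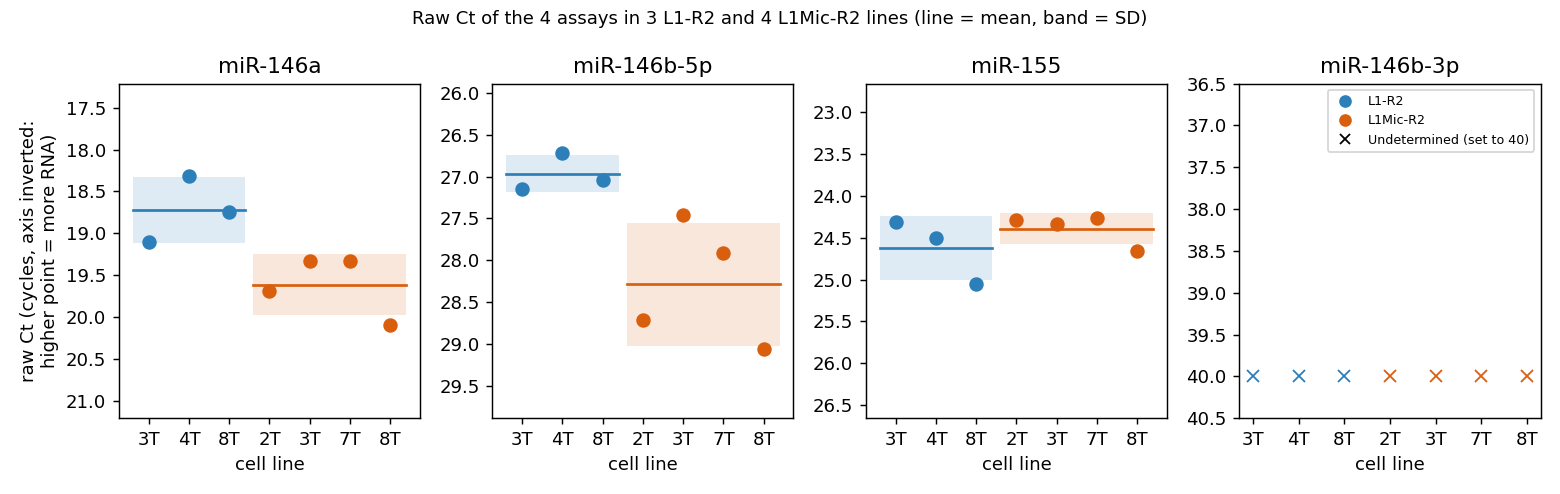
Raw Ct in cycles of the 4 assays in each of the 7 lines, with the y axis inverted so that more RNA lies higher and with a separate axis for each assay. Points are lines, the horizontal line is the group mean and the band is ± 1 SD. The 3 L1-R2 points lie above the 4 L1Mic-R2 points for miR-146a (18.32 to 19.11 against 19.33 to 20.10) and miR-146b-5p, those of miR-155 overlap, and crosses mark the Undetermined miR-146b-3p.

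How large these differences are depends on the scale. The methods of the study quantile normalize the cards, which replaces each Ct by the mean value of its rank. Of all 377 microRNAs, miR-146a had the lowest Ct on all 7 cards, behind U6 alone among the assays, and so received the same normalized Ct of 19.23 in every line. Its log2 difference was 0 with an SD of 0 by construction, which carries no information on the group difference. None of the other microRNAs among the 135 detected in all 7 lines had a single rank on all cards.

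The other 4 scales can show a difference for miR-146a. In limma it was -0.89 (SE 0.31, adjusted p = 0.163) on raw Ct and -0.66 (SE 0.20, adjusted p = 0.120) after scaling each card by the mean of the 135 detected microRNAs, on which 5.52% passed. Scaled by U6, the means were 18.76 ± 0.09 (SD, n = 3) and 19.59 ± 0.11 (SD, n = 4), and the difference of -0.83 passed (SE 0.16, 95% confidence interval -1.22 to -0.45, limma adjusted p = 0.0390), as did 4.42% of the 181 microRNAs on that scale. Leaving out any single line ended this call, with a difference of -0.89 to -0.80 and an adjusted p from limma of 0.0634 (without L1Mic-R2 line 7T) to 0.154 (without L1-R2 line 8T). Scaled by RNU44 and RNU48, the groups overlapped and the difference was -0.09 (95% confidence interval -0.97 to 0.79, limma adjusted p = 0.891), on a scale on which 0% of the microRNAs passed. On raw Ct these 2 controls appeared later in L1Mic-R2 on average, but their groups overlapped. Both were earliest in line 4T of L1-R2, at 23.67 for RNU44 and 18.81 for RNU48. Scaled by U6, RNU44 separated the groups with a difference of -0.83 (exact two-sided permutation test, p = 0.0286), about that of miR-146a. RNU48, at -0.67, overlapped on that scale. U6 scaled by RNU44 and RNU48 separated the groups the other way, at 0.75. Which control kept a constant level was not tested.

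After quantile normalization, the L1-R2 lines had a miR-146b-5p Ct of 26.97 ± 0.22 (SD, n = 3) and the L1Mic-R2 lines one of 28.11 ± 0.50 (SD, n = 4), without overlap. On this scale 10.5% of the microRNAs had less RNA in L1Mic-R2 without overlap. The log2 difference of -1.14 (2.21-fold lower in L1Mic-R2, SE 0.31, 95% confidence interval -1.90 to -0.39) had an unadjusted p of 0.00990 and an adjusted p of 0.0953 in limma, rank 18 of 181. An unadjusted p under 0.05 with less RNA in L1Mic-R2 was found for 9.94% of the microRNAs tested, and an adjusted p under 0.05 in either direction for 4.97%. The difference was -1.32 on raw Ct, -1.27 by U6, -1.09 by the mean of detected microRNAs and -0.52 by RNU44 and RNU48 (limma adjusted p = 0.152, 0.0665, 0.124 and 0.536). Limma with a trend and robust variances gave the same difference an adjusted p of 0.0272, so that the call depended on how the spread was pooled.

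For miR-155 the difference was positive on all 5 scales and passed on none. It was 0.56 after quantile normalization (SE 0.27, 95% confidence interval -0.10 to 1.23, limma adjusted p = 0.294). The other scales gave 0.23 for raw Ct, 0.29 by U6, 0.47 by the mean of detected microRNAs and 1.03 by RNU44 and RNU48. An interval that holds 0 does not show that the groups had the same level of miR-155.

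Part of this spread between scales is a shift shared by all microRNAs. The median log2 difference of the 181 microRNAs was -0.25 on raw Ct, -0.19 by U6, -0.01 by the mean of detected microRNAs and 0.56 by RNU44 and RNU48. Relative to that median, miR-146a stood at -0.64, miR-146b-5p at -1.08 and miR-155 at 0.48 on each of these 4 scales. These values are equal by construction, since each scale subtracts at most a single number per card, so that their equality adds no support. They place the estimates of both miR-146 members below the median and that of miR-155 above it. These distances from the median were not tested.

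**Figure D2:**
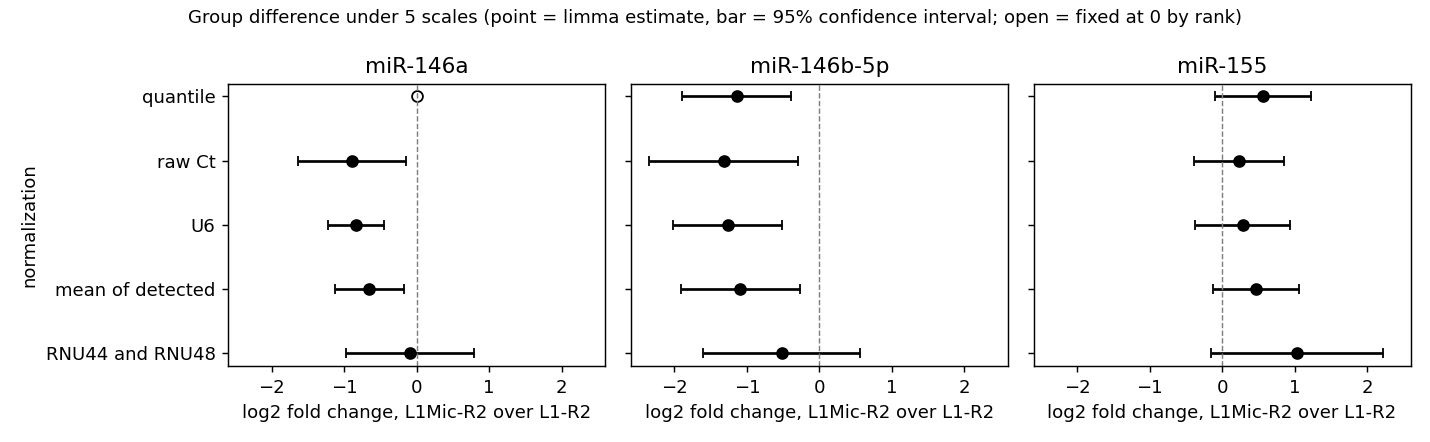
Log2 difference between L1Mic-R2 and L1-R2 lines, negative where L1Mic-R2 is lower (x axis), for miR-146a, miR-146b-5p and miR-155 under 5 normalizations (y axis), with limma estimates as points and 95% confidence intervals as bars. The open point marks miR-146a under quantile normalization, which is fixed at 0 by its rank. The estimates of miR-146a and miR-146b-5p lie below 0 elsewhere, closest to it with RNU44 and RNU48 (-0.09 and -0.52), and those of miR-155 lie above 0.

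Differences in raw Ct between assays within a card do not change under the scalings that subtract a single number per card, although quantile normalization changes them. The raw Ct of miR-146b-5p minus that of miR-146a was 8.40 in line 4T, 8.04 in 3T and 8.29 in 8T of L1-R2. In L1Mic-R2 it was 9.03 in 2T, 8.13 in 3T, 8.58 in 7T and 8.96 in 8T. The pair with the shared seed kept its distance within 1 cycle over the 7 lines, and the means of 8.24 ± 0.18 (SD, n = 3) and 8.67 ± 0.41 (SD, n = 4) did not differ beyond the spread (exact two-sided permutation test, p = 0.171). How much of the miR-146b-5p signal could come from the closely similar miR-146a, which had the lower Ct in every line, was not tested.

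The raw Ct of miR-155 minus that of miR-146a was 6.19 in line 4T, 5.20 in 3T and 6.30 in 8T of L1-R2. In L1Mic-R2 it was 4.61 in 2T, 5.01 in 3T, 4.93 in 7T and 4.56 in 8T. On raw Ct every L1-R2 line lay above every L1Mic-R2 line, so that the ratio of miR-155 to miR-146a was higher in L1Mic-R2. The raw Ct of miR-146a already separated the groups by itself, and how many other pairs of assays do so was not counted. On quantile normalized Ct, where miR-146a is fixed, the difference was -0.56 (exact two-sided permutation test, p = 0.114). The means were 5.90 ± 0.61 (SD, n = 3) and 4.78 ± 0.22 (SD, n = 4), a difference of -1.12 cycles (exact two-sided permutation test, p = 0.0286, the smallest possible here, and 0.0571 after adjustment over the 2 differences tested). A 3rd planned difference, between the arms of miR-146b, could not be tested because the 3p arm was Undetermined.

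The difference of miR-155 minus miR-146b-5p was added after its values were seen. It was -2.21 in line 4T, -2.84 in 3T and -1.99 in 8T of L1-R2, and -4.42 in 2T, -3.12 in 3T, -3.65 in 7T and -4.40 in 8T of L1Mic-R2. The groups did not overlap here either (exact two-sided permutation test, p = 0.0571), and again the share of other pairs without overlap was not counted.

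**Figure D3:**
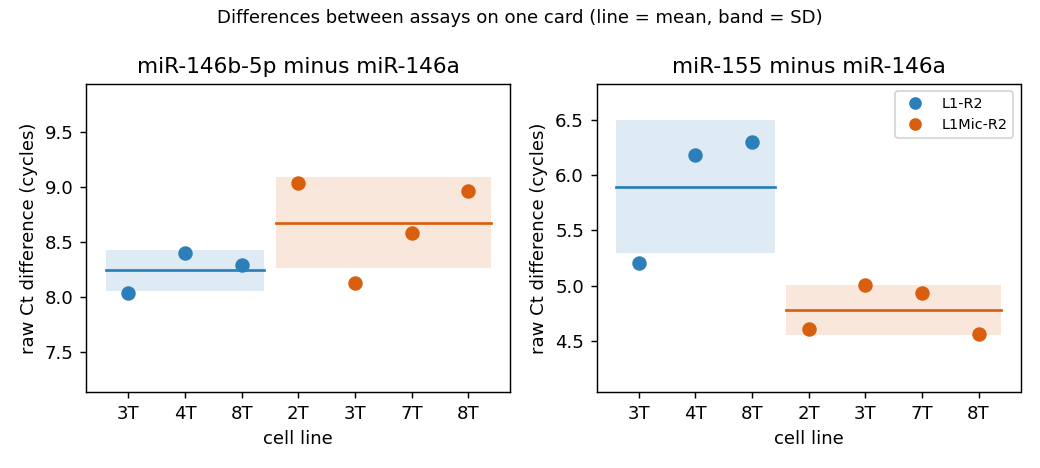
Raw Ct difference in cycles between assays on the same card, miR-146b-5p minus miR-146a on the left and miR-155 minus miR-146a on the right, for each of the 7 lines. Points are lines, the horizontal line is the group mean and the band is ± 1 SD. The left panel overlaps (8.04 to 8.40 against 8.13 to 9.03), and in the right panel the L1-R2 lines (5.20 to 6.30) lie above the L1Mic-R2 lines (4.56 to 5.01).

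Likeness over the 7 lines was measured by Pearson r against the other microRNAs detected in all lines, as a description. The points share their cards and fall into 2 groups, so that any microRNA with a group difference of the same sign can score high. For miR-146a, which has no variation on the quantile scale, Ct scaled by the mean of detected microRNAs was used. The most alike were miR-509-5p (r = 0.955), miR-26a (r = 0.944) and miR-509-3-5p (r = 0.926), followed in the 5th place of 134 by miR-146b-5p (r = 0.915). By contrast miR-155 had r = -0.721 with miR-146a and stood at place 114.

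On the quantile scale, miR-146b-5p was most like miR-192 (r = 0.925), miR-508-3p (r = 0.866) and miR-30c (r = 0.862). On the scale of the detected mean, miR-146a was the 2nd most alike of 134, after miR-582-5p (r = 0.947). For miR-155 the most alike on the quantile scale were miR-24 (r = 0.923), miR-296-5p (r = 0.889) and miR-92a (r = 0.841).

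Markers of other cell types did not all go the same way. Of 4 hematopoietic microRNAs (miR-142-3p, miR-142-5p, miR-150 and miR-223), none was detected in all 7 lines, miR-142-5p was Undetermined in each of them, and miR-142-3p, which is found in blood cells of all lineages, was detected in L1-R2 lines 4T (35.93) and 3T (36.03) only. For miR-150, a lymphocyte microRNA, the Ct was 34.93 in line 4T, 34.91 in 3T and 33.09 in 8T of L1-R2, and 35.54 in 2T and 37.46 in 8T of L1Mic-R2, with 3T and 7T Undetermined. For miR-223, a myeloid microRNA, the Ct was 37.37 in line 4T and 38.86 in 8T of L1-R2, with 3T Undetermined, and 35.42 in 2T, 35.35 in 3T and 36.07 in 8T of L1Mic-R2, with 7T Undetermined. Thus miR-150 was earlier in L1-R2 and miR-223 was earlier in 3 of the 4 L1Mic-R2 lines. Over the 4 microRNAs, the mean of 40 minus Ct was 2.01 to 2.94 in L1-R2 and 0 to 2.26 in L1Mic-R2, ranges that overlap, and their part in the difference of miR-146a was not tested. The erythroid miR-451 was Undetermined in all 7. The endothelial miR-126 was detected in all 7, and its 40 minus Ct was 4.94 to 7.54 in L1-R2 and 7.59 to 11.29 in L1Mic-R2. The groups came close but did not overlap, opposite in direction to miR-146a. How many of all microRNAs separated in that direction was not counted, and the part of miR-126 was not tested.

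Of 7 epithelial microRNAs, the miR-200 family with miR-203 and miR-205, 2 were detected in all 7 lines and miR-205 in none. Of the 7 melanocytic microRNAs on the card, 5 were detected in all lines, with a mean of 40 minus Ct of 10.02 to 10.61 in L1-R2 and 6.90 to 9.12 in L1Mic-R2. The mean of this list on raw Ct, with Undetermined wells at 40, was thus lower in every L1Mic-R2 line than in any L1-R2 line, like miR-146a and miR-146b-5p. Of its members, miR-204, miR-509-5p and miR-509-3-5p separated the groups on raw Ct. On that scale 13.8% of the 181 microRNAs tested had less RNA in L1Mic-R2 without overlap, and the median log2 difference of all 181 was -0.25. For miR-211, miR-506, miR-508-3p and miR-513-5p the groups overlapped. The raw Ct of miR-508-3p, for example, was 26.95 in line 3T of L1-R2 and 26.87 in line 3T of L1Mic-R2. The part of the list in the differences of miR-146a and miR-146b-5p was not tested.

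The other microRNAs of the pathway were taken as 2 lists: 10 reported to respond to NF-kB or Toll-like receptor signals, and 8 reported to act on components of NF-kB signaling. Of the 10 responsive microRNAs, miR-147, miR-187 and miR-224 were Undetermined in all 7 lines and 7 were tested. After adjustment 1 was higher in L1Mic-R2, where 3.31% of all microRNAs were, and 0 were lower. At an unadjusted p under 0.05 there was 1 in each direction, against 9.39% of all microRNAs higher and 9.94% lower, and their median log2 difference was -0.15, against 0.06 for all 181. On this quantile scale, the tested microRNAs other than miR-221 and miR-132 lay between -0.41 (miR-222) and 0.16 (miR-125b). Each of these had an unadjusted p of 0.225 or more in limma. Whether the list as a whole shifted was not tested.

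The microRNA that passed was miR-221, which represses the cell cycle inhibitor p27 and the receptor KIT. Its raw Ct was 32.37 in line 4T, 31.83 in 3T and 31.26 in 8T of L1-R2, and 29.07 in 2T, 29.75 in 3T, 30.33 in 7T and 29.23 in 8T of L1Mic-R2. All L1Mic-R2 lines held more miR-221, opposite to miR-146a, and the share of all microRNAs that separated this way was not counted. The log2 difference was 2.41 on the quantile scale (SE 0.46, limma adjusted p = 0.0392). The call was lost without any single line other than L1Mic-R2 line 7T, at adjusted p of 0.0837 to 0.122 in limma, although the difference stayed between 2.14 and 2.67. Its cluster partner miR-222 had a difference of -0.41 (SE 0.31, unadjusted p = 0.225 in limma).

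The lowest of the responsive list was miR-132, which targets the coactivator p300 and acetylcholinesterase. Its raw Ct was 27.85 in line 4T, 27.59 in 3T and 27.67 in 8T of L1-R2, and 28.71 in 2T, 28.57 in 3T, 28.70 in 7T and 29.21 in 8T of L1Mic-R2. The groups did not overlap on raw Ct, as with miR-146a and 13.8% of the 181 microRNAs tested. The log2 difference on the quantile scale was -0.69 (SE 0.25, limma adjusted p = 0.182). Scaled by RNU44 and RNU48 it was -0.29 and the groups overlapped. For miR-21, which is raised in many tumors, the difference was -0.30 (SE 0.42, limma adjusted p = 0.737).

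Of the 8 microRNAs that act on the pathway, 6 were on the card, miR-199a-5p was Undetermined in all 7 lines and 5 were tested. None passed after adjustment. At an unadjusted p under 0.05 1 was higher in L1Mic-R2, against 9.39% of all microRNAs, and the median difference was 0.39, against 0.06 for all 181. The highest was miR-126, an endothelial microRNA, at 34.50 in line 4T, 32.46 in 3T and 35.06 in 8T of L1-R2, and 30.98 in 2T, 31.75 in 3T, 28.71 in 7T and 32.41 in 8T of L1Mic-R2. Its groups did not overlap, but the closest lines were at 32.46 and 32.41, and lines of the same group differed by over 2 cycles. The log2 difference of 3.44 (SE 0.98) had an adjusted p of 0.104 in limma. The lowest, miR-15a, was detected in 4 lines and had a difference of -0.35 (SE 1.07, limma adjusted p = 0.861). On the other scales it was larger, -1.83 on raw Ct, -1.77 by U6, -1.59 by the detected mean and -1.02 by RNU44 and RNU48, and passed on none (limma adjusted p = 0.305, 0.353, 0.429 and 0.570).

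**Figure D4:**
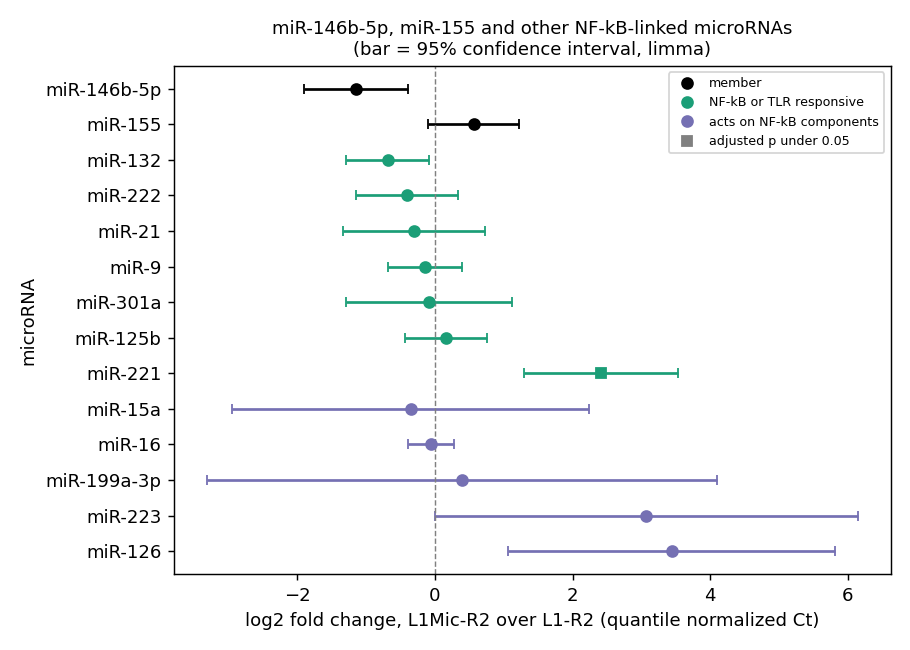
Log2 difference between L1Mic-R2 and L1-R2 lines on quantile normalized Ct (x axis) for miR-146b-5p, miR-155 and the tested microRNAs of both lists (y axis), with limma estimates as points and 95% confidence intervals as bars. The square marks the adjusted p under 0.05 of miR-221 (2.41). The other microRNAs reported to respond to NF-kB or Toll-like receptors (TLR) lie between -0.69 and 0.16, and miR-146a is left out because its rank fixes it at 0.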

How the data were processed

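The authors deposited, for each well, a threshold cycle and an average Ct, a number of cycles on a log2 scale before normalization, in which every Undetermined well is listed at 40. Per the labels, 30 ng of total RNA was reverse transcribed with Megaplex primers. The paper names SDS RQ Manager for the import, and the deposited files list a threshold of 0.3. Where the labels name SYBR and injection into the fat pad, the paper's TaqMan assays and tail vein injection were followed.

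The average Ct of 381 assays on 7 cards was quantile normalized in R 4.3.3 (limma 3.58.1). Tests covered the 181 of 377 microRNAs, 3 of the 4 described here among them, with a raw Ct under 38 in 3 or more lines. The groups were compared by lmFit and eBayes of limma on 40 minus Ct, adjusted by Benjamini-Hochberg over the 181, and single values by exact two-sided permutation tests over the 35 splits of 3 and 4 lines. The limma fit was first tried on simulated data with changes of 3 cycles, larger than those of the members, without normalization or filter. The permutation test was tried on made-up values with separate groups.

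The alternatives were raw Ct, 3 other scalings, other Ct limits and filters, a robust fit, a two-tailed Student test, each line left out, and the line number as a replicate block. After the data were seen, the block and the omissions were repeated for miR-146a scaled by the detected mean and by U6. Line numbers 3 and 8 occur in both groups by their labels, and the names of the files exchange numbers 3 and 4 of L1-R2.

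Named microRNAs are the 4 members, those of the 2 lists that pass or are highest or lowest, and the 3 most alike to each member; miR-222 and miR-21 were added after their values were seen. The members and lists were chosen with earlier results of these data known.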

Additional observations from a re-analysis of the deposited data

How the results depend on the processing

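Of 116 alternative values planned, 74 kept their side of the threshold, or stayed within 1.5 times for counts, and none reversed. Another 33 came out weaker, 6 stronger, and 3 moved. The weaker values included 12 of 19 for the number of microRNAs that differ and 13 of 19 for the lists. They also included 8 of 11 for miR-155 minus miR-146a. Of the 74 that kept their side, 14 are values of miR-146a that its rank holds at 0, which say nothing about stability. A further 18 of miR-146b-5p, 19 of miR-155 and 11 of miR-146b-5p minus miR-146a belong to results that did not pass in the main setting. They show no stable call. The difference of miR-146a, 0 under quantile normalization, was -0.89 on raw Ct, -0.66 by the detected mean, -0.087 by RNU44 and RNU48, and -0.83 by U6, where it passed. On the scale of the detected mean it was -0.76 to -0.53 when single lines were omitted (limma adjusted p = 0.124 to 0.257). The Student test gives it no value on the quantile scale, where its SD is 0. The difference of miR-146b-5p (-1.14) passed with a trend and robust variances (adjusted p = 0.0272), and was -1.30 to -0.96 without single lines (limma adjusted p = 0.0837 to 0.205). That of miR-155 was 0.39 to 0.84 without single lines and passed under no alternative.

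The number of microRNAs that differ, 9 at an adjusted p and 35 at an unadjusted p under 0.05, was 0 by RNU44 and RNU48 (37 unadjusted), without a filter (36) and in the Student test (35), 14 among microRNAs detected in all 7 lines, 21 with a trend and robust variances, and 0 to 4 without any 1 of the 7 lines (28 to 39 unadjusted). Of the lists, 1 microRNA passed; this was 0 by U6, by RNU44 and RNU48, with Ct limited to 35, without a filter and in the Student test, 2 with a trend and robust variances, and 0 without any 1 of the lines other than L1Mic-R2 line 7T, whose omission gave 2. Within lines, miR-155 minus miR-146a differed by -0.56 on quantile normalized Ct (exact permutation p = 0.114) and by -1.47 to -0.92 without single lines, where p was 0.0667 to 0.1, the smallest such designs allow. For miR-146b-5p minus miR-146a the omission of single lines gave 0.31 to 0.61, and quantile normalized Ct gave 1.14 (exact permutation p = 0.0571) in place of 0.43, with miR-146a fixed.

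The labels do not say what a line number marks. For same-numbered lines the correlation of their deviations was -0.0441 for 3T and -0.197 for 8T, each from a single pair of cards, which cannot settle whether such lines share anything else. With a replicate block by the labels, which leaves 1 residual degree of freedom, miR-146b-5p differed by -1.16, miR-155 by 0.45, miR-146a by 0 (by -0.52 scaled by the detected mean and -0.79 by U6), and 0 microRNAs passed (19 unadjusted), none of the lists among them. By the numbers in the names of the files, these values were -0.94, 0.86, 0, -0.75 and -0.87, and 0 passed (27 unadjusted). The within-line differences of the numbered pairs were 0.38 for miR-146b-5p minus miR-146a and -0.97 for miR-155 minus miR-146a.

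One card per line, without a repeat, sets the precision, and the spread within a group holds both line and measurement.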
